A study of Homo sapiens with 8 samples.

Results

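The 31 genes described here encode the enzymes that make purine and pyrimidine nucleotides, the building blocks of RNA and DNA. They are the members of a list of named genes, in which no measured value serves as a criterion but which was drawn up with earlier results of these data known, and all 31 are among the 60332 genes in the expression table. RNA was sequenced from SK-N-MC, an established Ewing sarcoma cell line, in 8 libraries that form 4 groups of 2 replicates. All cells carried dCas9-KRAB, a dead Cas9 fused to a transcriptional repressor. Control cells received it with an empty vector and were grown in normoxia or in hypoxia (1% oxygen for 16 h). In eKD1 and eKD2 cells, a guide RNA, different for each, directed the repressor to the GGAA-repeat enhancer of LOXHD1, and both were studied in hypoxia. The cells were puromycin-selected pools, not clones, and no eKD library from normoxia was analysed here, so the oxygen response of eKD cells could not be measured.

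Purine synthesis builds the ring stepwise on phosphoribosyl pyrophosphate (PRPP) and ends in inosine monophosphate, from which the adenine and guanine nucleotides are made. Pyrimidine synthesis makes the ring before it is joined to PRPP, and one of its steps, that of DHODH, passes electrons to the respiratory chain of the mitochondrion. Ribonucleotide reductase converts ribonucleotides to deoxyribonucleotides for DNA, and salvage enzymes return free bases and nucleosides to the pool. Many of these genes are known targets of the transcription factor MYC, and those of deoxynucleotide supply are known to follow the E2F factors that open S phase.

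The library labels were checked first. LOXHD1 was lower in eKD1 (log2 change -2.44, SE 0.0958, adjusted p = 0.0371) and in eKD2 (log2 change -2.87, SE 0.0657, adjusted p = 0.00617) than in control hypoxia. CA9, a carbonic anhydrase induced by hypoxia, was at 0 in the normoxia libraries and averaged 77.4 FPKM in control hypoxia. All 8 Ewing sarcoma markers examined were at 1 FPKM or more in every library. At an adjusted p under 0.05 (limma), 6 of them fell and 1 rose in hypoxia, where 32.2% of all genes tested changed. In eKD2, 3 rose and 1 fell, where 9.61% of all genes tested changed. Of 10 markers of other cell types, 6 were at 1 FPKM or more in every library and CD3E was at 0, and their summed level was 334 to 414 FPKM over the 8 libraries. Of the 7 of them that were tested, PTPRC and KRT18 fell and COL1A1 rose in hypoxia, and PTPRC and KRT18 rose in eKD2. PTPRC, a leukocyte marker, was at 22.5 and 23.8 FPKM in normoxia, 4.87 and 5.39 in control hypoxia, 10.0 and 9.59 in eKD1 and 14.3 and 13.5 in eKD2, and KRT18, an epithelial keratin, was at 115 and 118, 74.8 and 80.3, 137 and 139, and 115 and 120 FPKM in the same order. The part of these markers in the results was not tested. Relative depth, read from the low values, ran from 55.7% to 100% of the deepest library, and absolute depth is unknown.

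Levels are given in FPKM, a read density corrected for transcript length and library size, so different genes can be compared per length. Changes are differences in log2(FPKM + 1), tested with limma on 2 against 2 libraries, and a gene is called at an adjusted p under 0.05 over all 15372 genes tested. Of the 31 genes, 30 passed the filter on low values (1 FPKM or more in no fewer than 2 of the 8 libraries). The exception was CTPS2, the minor CTP synthetase, with 0 to 0.199 FPKM. NME2, a nucleoside diphosphate kinase that makes triphosphates, had the highest mean over the 8 libraries (702 FPKM), followed by RRM2, the S phase subunit of ribonucleotide reductase (418 FPKM). The plot of levels by library shows this spread.

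**Figure D1:**
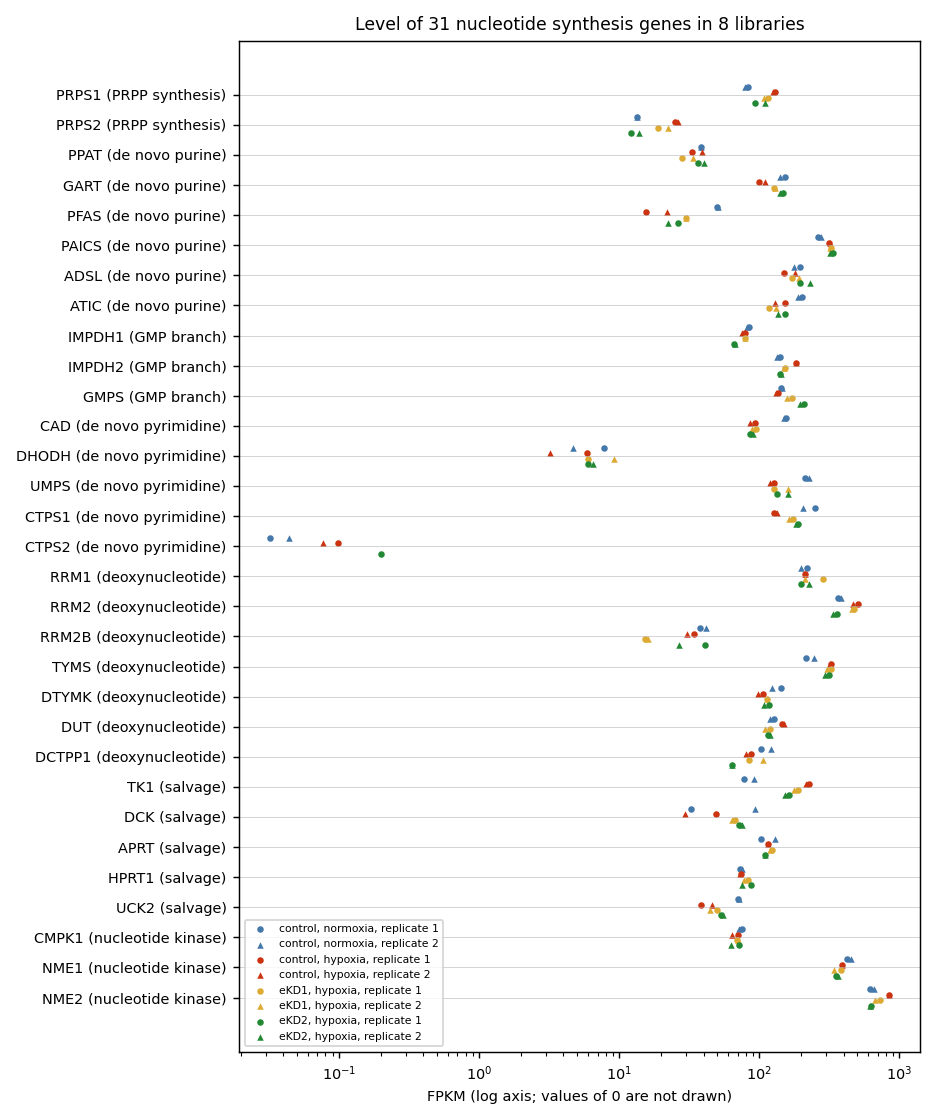
FPKM (log axis) of each of the 31 genes in each of the 8 libraries, with colour for the group and marker shape for the replicate. CTPS2 stays at or below 0.199 FPKM, and DCK is the gene whose normoxia replicates lie far apart (32.7 and 93.0 FPKM).

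The stretches of 30 bases below show each E-box or E2F string found near a start site of a gene called in the hypoxia or eKD2 comparison, whichever the direction of its change. Sequences are from RefSeq (GRCh38.p14), where windows from 250 bases before to 50 bases after a start site were found for 28 of the 31 genes (41 windows, as some genes have several starts). Capitals mark the E-box CACGTG or an E2F site (TTTCCCGC or TTTGGCGC, or the reverse complement). DUT, PAICS, PRPS2 and TYMS were called higher in hypoxia, and ATIC and GART lower. In eKD2, DUT and PRPS2 were called lower and GART higher, and ATIC, PAICS and TYMS were not called. ADSL, IMPDH2 and RRM2B had no window and were not searched. The GART string lies 245 bases before one of its alternative start sites.
ATIC (chr2:215312001-215312030, + strand): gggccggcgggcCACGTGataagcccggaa
ATIC (chr2:215312076-215312105, + strand): ctcctacctgcgCACGTGgtgccgccgctg
DUT (chr15:48332152-48332181, + strand): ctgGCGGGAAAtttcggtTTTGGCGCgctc
GART (chr21:33542338-33542367, - strand): agcatTTTGGCGCtcccccccggcgctcct
PAICS (chr4:56435772-56435801, + strand): ctggaaagctgtatttgctgCACGTGgaaa
PRPS2 (chrX:12791389-12791418, + strand): agccgccgcgcTTTCCCGCtcccgcagcag
TYMS (chr18:657603-657632, + strand): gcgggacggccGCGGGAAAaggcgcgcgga

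PPAT and PAICS, which catalyse different steps of the purine pathway, are transcribed in opposite directions from start sites 137 bases apart on chromosome 4, and the E-box printed in the PAICS line is the same site as the one found 182 bases before the PPAT start. Searching both strands, CACGTG was present in 7 of the 41 windows (17.1%), in ATIC, DCK, DCTPP1, DHODH, NME1, PAICS and PPAT, and in 7.26% of all 35116 windows. One or more of the E2F strings TTTCCCGC, TTTGGCGC and TTTCGCGC was present in 5 windows (12.2%), in DCK, DUT, GART, PRPS2 and TYMS, and in 2.74% of all windows. CCAAT, the core of the NF-Y site, was in 31.7% of the members' windows and 34.6% of all. The hypoxia response core was found as ACGTG in 39.0% and 21.4%, and as GCGTG in 65.9% and 36.5%. Each CACGTG also holds ACGTG, so these counts overlap. A match of letters is a description and not evidence of binding.

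Comparing hypoxic with normoxic control cells asks how the pathway responds to 16 h of low oxygen. Both genes of PRPP synthesis, 3 of 7 deoxynucleotide genes and thymidine kinase TK1 were higher in hypoxia, whereas 3 of 6 genes of the purine chain and 3 of 4 tested genes of the pyrimidine chain were lower. Of the 30 genes tested, 16 were called, 9 higher and 7 lower. Over all genes tested, 32.2% were called, 16.2% higher and 16.0% lower. The median log2 change was -0.12 for the 30 genes and 0.01 for all genes tested. In such bulk RNA, fewer cells of a kind and less RNA per cell cannot be told apart. When each library was scaled to the same FPKM total, the median over all genes moved to -0.20 and 19 genes were called, 4 higher (NME2, PRPS1, PRPS2 and TK1) and 15 lower, where 36.0% of all genes were called, 10.2% higher and 25.8% lower. With no filter on low values, 7 were called, 5 higher and 2 lower, where 11.1% of all genes were called.

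**Figure D2:**
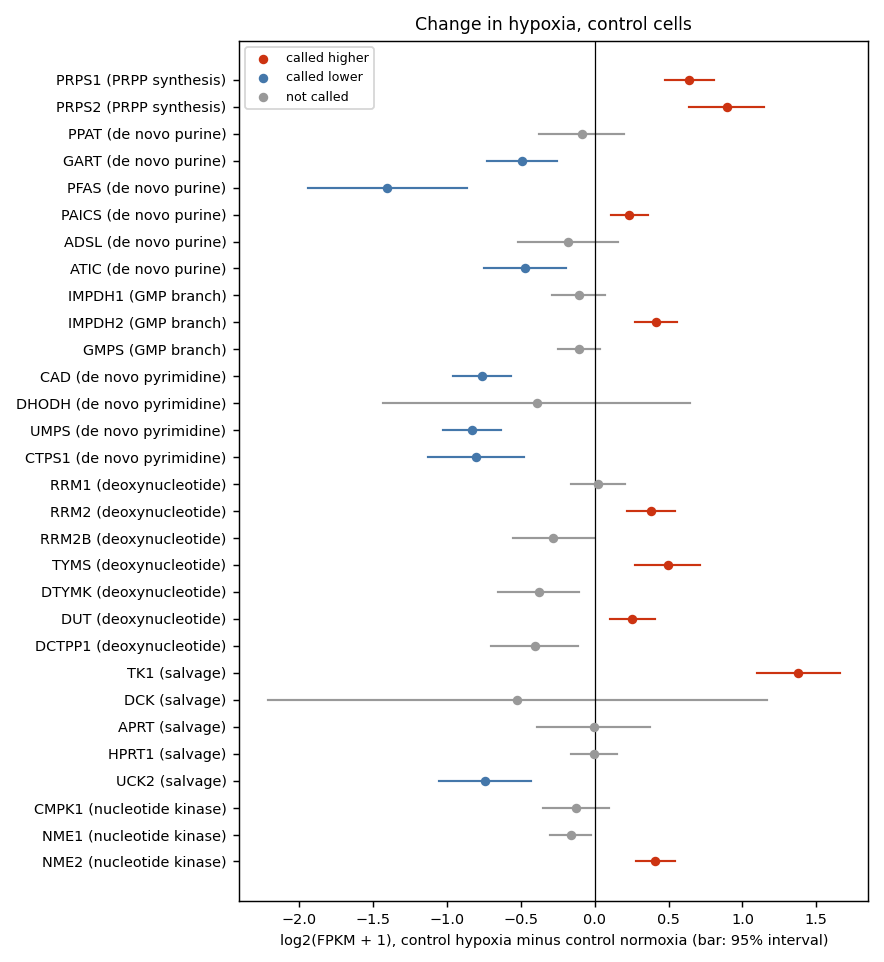
Difference in log2(FPKM + 1) between control hypoxia and control normoxia for the 30 tested genes, with 95% intervals, coloured by whether the gene was called. TK1 (1.38) and PFAS (-1.40) mark the ends of the range.

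The PRPP synthetases, which make the sugar donor for both pathways, both rose. PRPS1 was at 82.9 and 79.1 FPKM in normoxia and 129 and 125 FPKM in hypoxia (log2 change 0.64, SE 0.0578, adjusted p = 0.00929). PRPS2 measured 13.3 FPKM in each normoxia library, against 24.8 and 26.4 FPKM in hypoxia (log2 change 0.89, SE 0.0894, adjusted p = 0.0103). Neither pair of groups overlapped. That held for 23 of the 30 tested genes in hypoxia, and for 19 in eKD1, where none of the 30 was called. The share over all genes was not computed, so a lack of overlap is given only as a description.

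In the chain from PRPP to inosine monophosphate, 3 of 6 genes fell, 1 rose and 2 were not called. PFAS (chr17:8150936-8173809 on GRCh37, + strand), which adds nitrogen to the growing ring, was at 49.8 and 51.0 FPKM in normoxia and 15.4 and 22.0 FPKM in hypoxia (log2 change -1.40, SE 0.190, adjusted p = 0.0163). GART, a single protein with 3 activities of the pathway, was at 154 and 140 FPKM in normoxia and 99.2 and 109 FPKM in hypoxia (log2 change -0.49, adjusted p = 0.0247). ATIC, which closes the ring, was at 203 and 189 FPKM and then at 153 and 131 FPKM (log2 change -0.47, adjusted p = 0.0373). All 3 genes were lower in both hypoxia libraries than in either normoxia library.

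PAICS, which acts in this chain before ATIC closes the ring, was at 264 and 275 FPKM in normoxia and 315 and 320 FPKM in hypoxia (log2 change 0.23, adjusted p = 0.0301). With equal FPKM totals its change was -0.01 (adjusted p = 0.93), so its direction rests on the scaling. Within a library, where scaling cancels, the ratio of PAICS to PFAS was 5.31 and 5.39 in normoxia and 20.4 and 14.5 in hypoxia. PPAT, the enzyme of the committed step, which shares the promoter region with PAICS, was at 38.4 and 38.3 FPKM in normoxia and 33.3 and 38.9 FPKM in hypoxia (adjusted p = 0.547). ADSL, at 196 and 177 FPKM and then 149 and 180 FPKM, was not called (adjusted p = 0.312).

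Of the guanine branch, IMPDH2 rose, and IMPDH1 and GMPS were not called. IMPDH2, the main form of the rate-limiting IMP dehydrogenase in dividing cells, was at 141 and 134 FPKM in normoxia and 182 and 184 FPKM in hypoxia (log2 change 0.41, SE 0.0510, adjusted p = 0.014). With equal FPKM totals the change was 0.18 and the adjusted p 0.0882. The annotation places a readthrough gene over part of IMPDH2, so its FPKM may hold shared reads. The ratio of IMPDH2 to IMPDH1 was 1.66 and 1.64 in normoxia and 2.29 and 2.46 in hypoxia.

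In pyrimidine synthesis, 3 of 4 tested genes were called lower and none higher. CAD (chr2:27440237-27466811 on GRCh37, + strand), which holds the initial activities of the pathway, was at 155 and 149 FPKM in normoxia and 93.6 and 85.5 FPKM in hypoxia (log2 change -0.76, SE 0.0697, adjusted p = 0.00941). UMPS, which completes uridine monophosphate, was at 211 and 228 FPKM and then 127 and 119 FPKM (log2 change -0.83, SE 0.0692, adjusted p = 0.00852). CTPS1, which makes CTP from UTP, was at 251 and 207 FPKM and then 127 and 134 FPKM (log2 change -0.80, SE 0.114, adjusted p = 0.018). The groups did not overlap for any of them. DHODH was low, at 7.795 and 4.65 FPKM in normoxia and 5.87 and 3.20 FPKM in hypoxia, and was not called (adjusted p = 0.457). The summed level of the 5 pyrimidine genes was 625 and 588 FPKM in normoxia and 353 and 341 FPKM in hypoxia.

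Of the 7 deoxynucleotide genes, 3 rose and 4 were not called. RRM2 was at 363 and 382 FPKM in normoxia and 503 and 469 FPKM in hypoxia (log2 change 0.38, adjusted p = 0.0196). TYMS, which makes thymidylate, was at 216 and 246 FPKM and then 327 and 322 FPKM (log2 change 0.49, adjusted p = 0.0215). DUT, which removes dUTP and so keeps uracil out of DNA, was at 127 and 120 FPKM and then 146 and 149 FPKM (log2 change 0.26, adjusted p = 0.038). These 3 genes kept a positive change with equal FPKM totals but were not called (0.14, 0.25 and 0.02, in the same order, with adjusted p of 0.0909, 0.0621 and 0.854). TYMS overlaps ENOSF1 on the other strand, and the library kit does not mark strand.

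RRM1, the large reductase subunit, was at 218 and 198 FPKM in normoxia and 211 FPKM in both hypoxia libraries (adjusted p = 0.832). RRM2B, the reductase subunit induced by p53, was at 37.7 and 41.3 FPKM and then 34.2 and 30.7 FPKM (adjusted p = 0.106). DTYMK, the thymidylate kinase, had a log2 change of -0.38 (adjusted p = 0.0556), and DCTPP1, which hydrolyses dCTP, one of -0.40 (adjusted p = 0.0568). For these last genes both hypoxia libraries were below both normoxia libraries. DCTPP1 overlaps ZNF771 on the other strand over 41.2% of its exon bases, so its FPKM may hold shared reads.

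TK1 (chr17:76170172-76183314 on GRCh37, - strand), the thymidine kinase of proliferating cells, rose more than any other of the 30 genes. It was at 77.9 and 91.5 FPKM in normoxia and 227 and 214 FPKM in hypoxia (log2 change 1.38, SE 0.0996, adjusted p = 0.00809), a 2.61-fold difference of means. UCK2, the uridine and cytidine kinase, was at 70.4 and 71.8 FPKM and then 38.5 and 46.2 FPKM (log2 change -0.74, SE 0.110, adjusted p = 0.0193). The ratio of TK1 to UCK2 was 1.11 and 1.27 in normoxia and 5.91 and 4.64 in hypoxia. APRT and HPRT1, the purine base salvage enzymes, had log2 changes of -0.01 each (adjusted p = 0.977 and 0.944). DCK, the deoxycytidine kinase, was at 32.7 and 93.0 FPKM in normoxia and 49.4 and 29.5 FPKM in hypoxia, so its normoxia replicates lay farther apart than its group means, and it overlaps MOB1B on the same strand.

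Among the kinases that complete the triphosphates, NME2 rose from 617 and 658 FPKM to 849 and 846 FPKM (log2 change 0.41, SE 0.0464, adjusted p = 0.0121). NME1, its neighbour on chromosome 17, was at 423 and 451 FPKM in normoxia and 388 and 392 FPKM in hypoxia (log2 change -0.16, adjusted p = 0.0799). The ratio of NME2 to NME1 was 1.46 in both normoxia libraries and 2.19 and 2.16 in hypoxia. Both overlap the annotated NME1-NME2 readthrough, and how cufflinks divided those reads is unknown. CMPK1 was not called (adjusted p = 0.289).

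Wider lists were set beside these genes. Of 45 tested genes of wider nucleotide metabolism, 14 rose and 4 fell in hypoxia (40.0% called, where 32.2% of all genes were). The largest rises were those of AK4, a mitochondrial adenylate kinase (log2 change 2.46, adjusted p = 0.00787), GUK1, the guanylate kinase (1.27, adjusted p = 0.00665), and ADA, adenosine deaminase (1.01, adjusted p = 0.0117). The largest falls were those of NT5C2, a nucleotidase (-0.90, adjusted p = 0.012), AK6 (-0.64, adjusted p = 0.00929) and CMPK2 (-0.61, adjusted p = 0.0328). Of 18 genes of folate and one-carbon metabolism, which supply carbon for purines and thymidylate, 3 rose and 4 fell. That is 38.9% called, where 32.2% of all genes were. SHMT1 (0.86), MTHFD2 (0.78) and SHMT2 (0.66) rose, and SLC19A1, the folate carrier (-1.03), MTRR (-0.88) and SLC25A32 (-0.84) had the largest falls.

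Cell cycle genes moved as well. Of 26 S phase genes 5 rose and 6 fell in hypoxia, with a median log2 change of -0.02, and of 20 G2/M genes 16 fell and none rose, with a median of -0.67. Among all genes tested, 16.2% were called higher and 16.0% lower, with a median of 0.01. MYC fell (log2 change -0.56, SE 0.0746, adjusted p = 0.016) and E2F1 rose (0.59, SE 0.0759, adjusted p = 0.015). The part of these in the changes above was not tested.

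The eKD1 comparison asks what repression of the LOXHD1 enhancer with one guide changed in hypoxia. None of the 30 genes was called with limma, where 0.0651% of all genes were. At an unadjusted p under 0.05 there were 10 genes, where 21.7% of all genes were. The median log2 change was 0.05 for the 30 genes and 0.00 for all genes tested. RRM2B had the largest change, with 34.2 and 30.7 FPKM in hypoxic control cells, against 15.3 and 16.0 FPKM in eKD1 (log2 change -1.005, SE 0.0974, adjusted p = 0.102). Both eKD1 libraries lay below the 6 other libraries. In a limma fit that shared 1 variance per gene over all 8 libraries, 4 genes were called lower, where 4.95% of all genes were called. They were RRM2B (adjusted p = 0.0426), DUT (log2 change -0.37, adjusted p = 0.0349), IMPDH2 (-0.27, adjusted p = 0.038) and NME2 (-0.28, adjusted p = 0.0437). None of the 4 was called in that fit when any 1 of the control hypoxia or eKD1 libraries was left out, an alternative chosen after seeing the data.

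The eKD2 comparison asks the same with the other guide. Of the 30 genes, 9 were called, 3 higher and 6 lower. Over all genes tested, 9.61% were called, 5.8% higher and 3.81% lower. The median log2 change was 0.02 for the 30 genes and 0.05 for all genes tested. The members that rose were GMPS, GART and CTPS1, of the purine and pyrimidine chains. Those that fell were PRPS2, RRM2, TK1, NME2, IMPDH2 and DUT. With no filter on low values 2 of them were called (IMPDH2 and NME2), where 3.14% of all genes were, and with no variance trend none was, where 0.182% of all genes were. GART was not called after median-of-ratios rescaling, nor DUT with equal FPKM totals.

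GMPS, which makes GMP, measured 136 and 131 FPKM in hypoxic control cells, against 208 and 194 FPKM in eKD2 (log2 change 0.58, SE 0.0577, adjusted p = 0.0305). CTPS1 measured 127 and 134 FPKM in hypoxic control cells, against 188 and 182 FPKM in eKD2 (log2 change 0.50, SE 0.0540, adjusted p = 0.031). GART measured 99.2 and 109 FPKM in hypoxic control cells, against 147 and 140 FPKM in eKD2 (log2 change 0.46, SE 0.0698, adjusted p = 0.0432). The groups did not overlap for any of these genes, which were among 23 of the 30 without overlap in this comparison.

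PRPS2 measured 24.8 and 26.4 FPKM in hypoxic control cells, against 12.2 and 13.9 FPKM in eKD2 (log2 change -0.93, SE 0.106, adjusted p = 0.0331). RRM2 measured 503 and 469 FPKM in hypoxic control cells, against 357 and 335 FPKM in eKD2 (log2 change -0.49, SE 0.0607, adjusted p = 0.0351). TK1 measured 227 and 214 FPKM in hypoxic control cells, against 164 and 153 FPKM in eKD2 (log2 change -0.48, SE 0.0621, adjusted p = 0.0365). In eKD2 these 3 genes were below both control hypoxia libraries, and TK1 remained above both normoxia libraries.

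NME2 measured 849 and 846 FPKM in hypoxic control cells, against 624 and 622 FPKM in eKD2 (log2 change -0.44, SE 0.0314, adjusted p = 0.0273). IMPDH2 measured 182 and 184 FPKM in hypoxic control cells, against 140 and 142 FPKM in eKD2 (log2 change -0.38, adjusted p = 0.0326). DUT measured 146 and 149 FPKM in hypoxic control cells, against 116 and 120 FPKM in eKD2 (log2 change -0.32, adjusted p = 0.0426). DCTPP1, at 87.4 and 80.4 FPKM and then 64.3 and 63.8 FPKM, was not called (adjusted p = 0.0522). The summed level of the 3 nucleotide kinases was 1308 and 1302 FPKM in control hypoxia and 1050 and 1048 FPKM in eKD2.

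**Figure D3:**
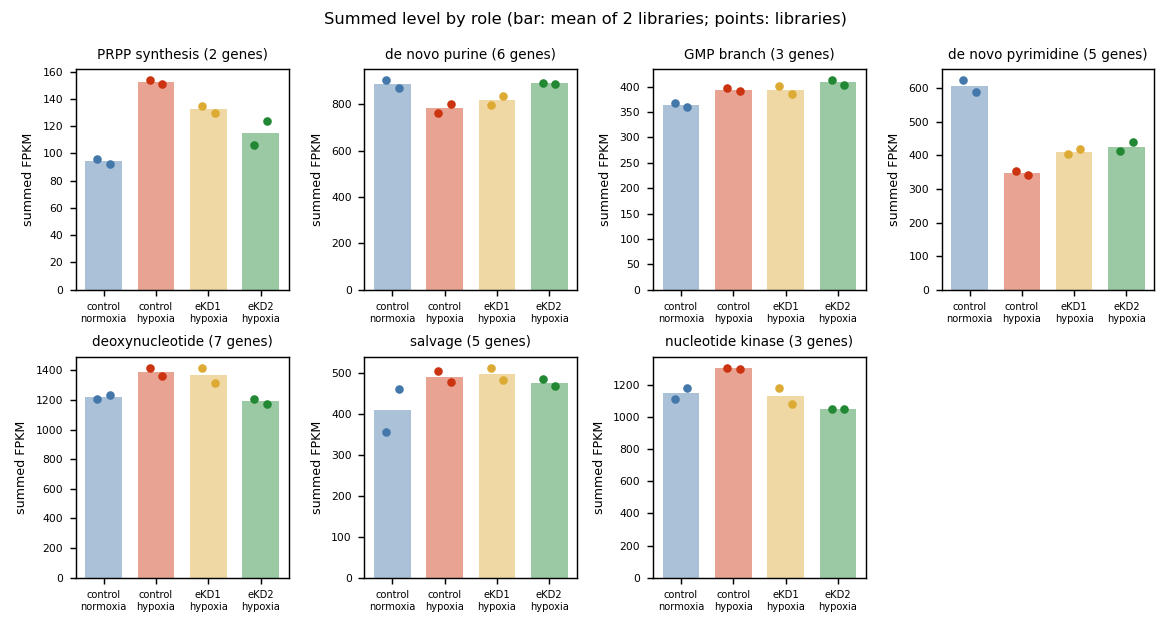
Summed FPKM of the genes of each role in each library (points) with the mean of 2 libraries (bars) in the 4 groups. The pyrimidine sum is 625 and 588 in normoxia and 353 and 341 in control hypoxia, and the eKD2 kinase sum is 1050 and 1048.

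The hypoxia and eKD comparisons share the control hypoxia libraries, so chance deviations of these libraries move them in opposite directions. Side by side, 6 genes were called higher in hypoxia and lower in eKD2 (DUT, IMPDH2, NME2, PRPS2, RRM2 and TK1), 2 were called lower in hypoxia and higher in eKD2 (CTPS1 and GART), and none was called in the same direction in both. These counts were not made over all genes tested, so whether they are particular to these genes is unknown. The log2 changes of PRPS2 were 0.89 in hypoxia, -0.30 in eKD1 and -0.93 in eKD2. Those of CTPS1 were -0.80, 0.37 and 0.50 in the same order. CAD and UMPS, which fell in hypoxia, had eKD2 changes of -0.02 (adjusted p = 0.877) and 0.25 (adjusted p = 0.224), and TYMS, which rose, had one of -0.09 (adjusted p = 0.254).

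**Figure D4:**
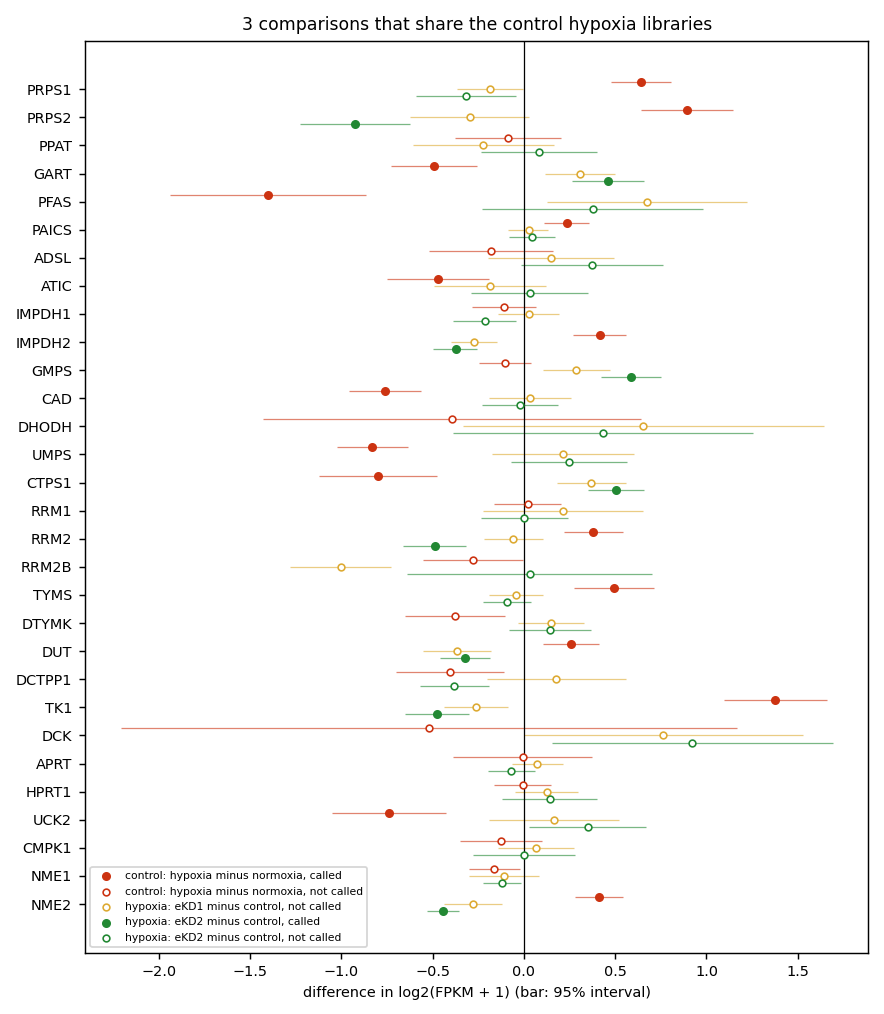
Differences in log2(FPKM + 1), with 95% intervals, of the 30 tested genes in 3 comparisons, filled where called. The comparisons share the control hypoxia libraries, and 6 genes called higher in hypoxia, among them PRPS2 (0.89 and -0.93), are called lower in eKD2.

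In eKD2, 8 of 26 S phase genes fell and none rose, with a median log2 change of -0.26, and 5 of 20 G2/M genes rose and none fell, with a median of 0.33. Among all genes tested, 5.8% were called higher and 3.81% lower, with a median of 0.05. MYC rose (log2 change 0.79, SE 0.0675, adjusted p = 0.028) and E2F1 fell (-0.55, SE 0.0560, adjusted p = 0.0305). Their part in the changes of the nucleotide genes was not tested. Of the wider list, genes called in eKD2 included AK6 (log2 change 0.35), which rose, and PNP (-0.53) and UCK1 (-0.42), which fell. Of the folate list, MTHFD2, the mitochondrial one-carbon enzyme (1.00), and SLC25A32 (0.70) rose and SHMT1 (-0.75) fell. In eKD1 no gene of either list was called with limma, with 5 of 45 and 6 of 18 at an unadjusted p under 0.05, where 21.7% of all genes were.

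The lines with the 2 guides were also compared directly. None of the 30 genes was called with limma, where 0.403% of all genes were, and 8 had an unadjusted p under 0.05, where 23.6% of all genes did. The median log2 change of eKD2 against eKD1 was -0.03 for the 30 genes and 0.05 for all genes tested. RRM2B measured 15.3 and 16.0 FPKM in eKD1, against 41.1 and 26.7 FPKM in eKD2 (log2 change 1.04, SE 0.236, adjusted p = 0.129). RRM2 measured 477 and 456 FPKM in eKD1, against 357 and 335 FPKM in eKD2 (log2 change -0.43, SE 0.0569, adjusted p = 0.0828). With the variance shared over 8 libraries, RRM2B (adjusted p = 0.028) and GMPS (0.30, adjusted p = 0.0413) were called higher in eKD2, and RRM2 (adjusted p = 0.0135), PRPS2 (-0.63, adjusted p = 0.0273) and DCTPP1 (-0.56, adjusted p = 0.0474) lower, where 9.05% of all genes were called. With 1 eKD1 or eKD2 library left out of that fit, none was called, except RRM2B without replicate 2 of eKD2.

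Ratios of enzymes within a library do not depend on scaling between libraries. These ratios, here and above, are made of the same values as the changes and add no further test. The ratio of RRM2 to RRM2B was 9.63 and 9.24 in normoxia, 14.7 and 15.3 in control hypoxia, 31.3 and 28.5 in eKD1 and 8.70 and 12.6 in eKD2, so eKD1 stood above all other libraries. The ratio of GMPS to IMPDH2 was 1.02 and 1.09 in normoxia, 0.749 and 0.712 in control hypoxia, 1.11 and 1.05 in eKD1 and 1.49 and 1.37 in eKD2. The ratio of NME2 to NME1 in eKD1 (1.91 and 1.95) and eKD2 (1.76 and 1.71) lay between those of normoxia and control hypoxia. The ratio of PRPS1 to PRPS2 was 5.20 and 4.73 in control hypoxia and 7.70 and 7.94 in eKD2.

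**Figure D5:**
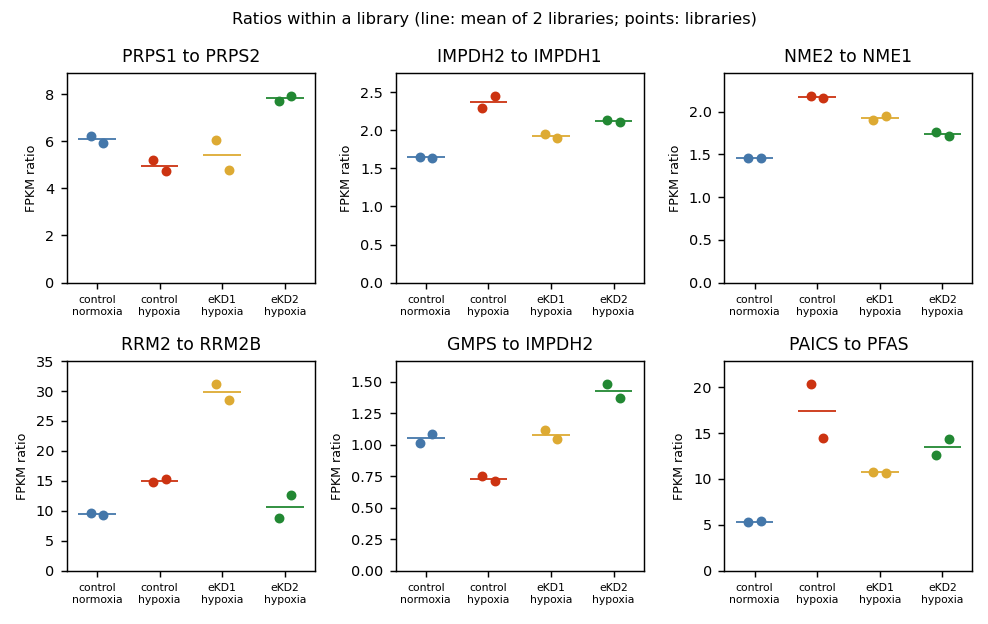
FPKM ratios of 6 pairs of genes in each library (points) with group means (lines) in the 4 groups. The ratio of RRM2 to RRM2B reaches 31.3 and 28.5 in eKD1, and that of NME2 to NME1 is 1.46 in normoxia and 2.19 and 2.16 in control hypoxia.

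The calls above rest on 2 libraries a group. With any 1 library left out of a comparison, limma on the remaining 3 called none of all 15372 genes, so a fit of the other 7 libraries with a shared variance was added after seeing the data. There 13 to 16 of the 30 genes were called in the hypoxia comparison, where 22.6% to 26.9% of all genes were, and 13 were called whichever library was left out, 7 higher (IMPDH2, NME2, PRPS1, PRPS2, RRM2, TK1 and TYMS) and 6 lower (CAD, CTPS1, GART, PFAS, UCK2 and UMPS). In the eKD2 comparison 5 to 7 were called, where 4.36% to 6.73% of all genes were, and GMPS (higher) and NME2, PRPS2 and RRM2 (lower) were called whichever library was left out. CTPS1, DUT and TK1 were not called in any of these eKD2 fits.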

How the data were processed

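Poly-A RNA of 8 SK-N-MC libraries was sequenced by the authors as single-end reads of 75 bases, aligned with STAR to GRCh37 and summarised by cufflinks and cuffnorm. The authors deposited FPKM, in 1 table of 60332 genes, and how cuffnorm scaled the libraries is not given in the sources used here. The study tested counts with a count model. Only FPKM were analysed here, so limma 3.58.1 in R 4.3.3 was applied to log2(FPKM + 1), which understates changes of low genes. A filter kept the 15372 genes at 1 FPKM or more in no fewer than 2 of the 8 libraries. The 4 libraries of a comparison were fitted alone (eBayes with a variance trend), two-sided, with Benjamini-Hochberg adjustment over all genes tested. The scripts were tested on simulated data. The labels do not say that replicates came from separate cultures, though the study calls them biological, and p-values measure only the spread between these libraries.

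Groups came from the sample titles. The members and gene lists were chosen with earlier results of these data known. All 31 members are named; of the wider and folate lists, up to 3 called rises and 3 called falls per comparison; of the cell cycle lists only counts and medians. One gene of the wider list that this rule names is not reported here. Gene overlaps and gene coordinates on GRCh37 are from GENCODE version 44, and promoters from RefSeq on GRCh38.p14. The loci listed with the FPKM are wider for some members, among them PFAS (from position 8128138) and GART (to position 35349992). Whether the FPKM of PFAS and GART hold reads of other genes was not tested. Cufflinks shares reads between overlapping genes and the kit does not mark strand. Intervals of changes are those of limma. No counting interval of a single value and no detection floor was computed, as depth is unknown. Alternatives changed the pseudocount, filter, scaling, variance model, gene set, samples in the fit and replicate block, and left out each library.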

Additional observations from a re-analysis of the deposited data

Results flagged for a closer look

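MTHFD2, the mitochondrial one-carbon enzyme of the folate list, differed between the lines with the 2 guides by a direct test. It averaged 118 FPKM in eKD1 and 372 FPKM in eKD2, which is 1.649 higher on the log2 scale (SE 0.0643, adjusted p = 0.0256 with limma), and was at 185 FPKM in control hypoxia. With the replicate block, 0 of all 15372 genes were called in this comparison, so MTHFD2 was not called there. Each guide had its own pool of cells, so guide and pool cannot be told apart.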

How the results depend on the processing

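The limits are 2 libraries a group, unknown depth and the scaling of the deposited values. The number of genes called in hypoxia was 16, and 7 with no filter on low values. With no variance trend 11 were called in hypoxia, where 4310 of 15372 genes were called. The number was 9 in eKD2, and 2 with no filter, 0 with no variance trend and 0 with the replicate block. It was 0 in eKD1, and 4 in the shared fit and 1 with protein-coding genes only, where 155 of 12248 genes were called. It was 0 in eKD2 against eKD1, and 5 in the shared fit and 1 with protein-coding genes only, where 549 of 12248 genes were called. With 1 library left out, in the comparison alone or in the shared fit, the counts were 0 to 16 in hypoxia, 0 to 7 in eKD2 and 0 to 1 in eKD2 against eKD1, and 0 in eKD1. A fit of 3 libraries has 1 residual degree of freedom, and in it the lone library is assumed to vary like the other group.

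The replicate numbers did not pair the libraries, with correlations of deviations of -0.06 to 0.13. With the replicate block, 11 genes were called in hypoxia (5 higher, 6 lower), where 2570 of all 15372 genes were called. GART and RRM2 were among those not called in hypoxia with the block, with no variance trend or with no filter. In each eKD comparison 0 were called with the block, where 0 of all genes were.

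The median log2 change of the 30 genes with equal FPKM totals was -0.356 in hypoxia, 0.12 in eKD1, 0.122 in eKD2 and 0.004 in eKD2 against eKD1. With median-of-ratios rescaling it was -0.045 in eKD2 and -0.072 in eKD2 against eKD1. With 1 library left out it was -0.141 to -0.073 in hypoxia, 0.016 to 0.051 in eKD1, -0.057 to 0.049 in eKD2 and -0.044 to -0.003 in eKD2 against eKD1. The cause of these differences was not tested.

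Among single genes, PAICS in hypoxia was the only called gene whose log2 change took the other sign under an alternative. The other sign changes were of genes that were not called. With equal FPKM totals, the sign changed in the hypoxia comparison for PAICS (-0.006) and RRM1 (-0.220). With equal FPKM totals, the sign changed in the eKD1 comparison for RRM2 (0.014) and TYMS (0.026). With median-of-ratios rescaling, the sign changed in the eKD2 comparison for RRM2B (-0.029), PAICS (-0.019), ATIC (-0.031) and RRM1 (-0.059). With equal FPKM totals, the sign changed in the eKD2 comparison for CAD (0.085), CMPK1 (0.104), TYMS (0.012) and APRT (0.036). With median-of-ratios rescaling, the sign changed in the eKD2 against eKD1 comparison for UMPS (-0.008), PAICS (-0.022) and HPRT1 (-0.025). With equal FPKM totals, the sign changed in the eKD2 against eKD1 comparison for DTYMK (0.029) and NME1 (0.022). Where leaving out 1 library changed the sign, the log2 changes spanned the following values over the libraries left out. In the hypoxia comparison the ranges were -1.263 to 0.219 for DCK, -0.023 to 0.011 for HPRT1, -0.049 to 0.089 for RRM1, -0.181 to 0.168 for APRT and -0.197 to 0.021 for PPAT. In the eKD1 comparison the ranges were -0.030 to 0.099 for CAD, -0.014 to 0.067 for IMPDH1, -0.005 to 0.134 for CMPK1 and -0.093 to 0.003 for TYMS. In the eKD2 comparison the ranges were -0.085 to 0.044 for CAD, -0.025 to 0.193 for PPAT, -0.091 to 0.089 for CMPK1, -0.270 to 0.333 for RRM2B, -0.081 to 0.144 for ATIC and -0.099 to 0.106 for RRM1. In the eKD2 against eKD1 comparison the ranges were -0.112 to 0.001 for CAD, -0.140 to 0.205 for UMPS, -0.090 to 0.066 for NME1, -0.498 to 0.054 for DHODH, -0.017 to 0.108 for DUT, -0.088 to 0.12 for HPRT1, -0.015 to 0.054 for PAICS, -0.156 to 0.024 for CMPK1 and -0.071 to 0.059 for DTYMK.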
